A study of Mus musculus with 8 samples.

Results

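In the table of Argonaute-bound small RNAs (RISC-bound sRNAs, R-sRNAs) of 8 mouse brains, 11529 of the 47204 distinct read sequences matched a miRNA hairpin but carried no mature miRNA name. They were chosen by these 2 entries of the deposited table and were summed by the hairpin they matched, which gave 234 hairpins. They carried between 1.81% and 2.12% of all reads of a library. All 8 mice carried the 5XFAD transgenes, which are driven by the neuronal Thy1 promoter, so no group without amyloid transgenes was compared here. 4 mice were 5XFADtg/Rubicon het (Rubicon+/-, here het) and 4 were 5XFADtg/Rubicon ko (Rubicon-/-, here ko). Rubicon restrains canonical autophagy, and the study asked how its loss in 5XFAD brain changed the R-sRNAs. The mice were females, of 6 or 8 months by the study's methods and age-matched at 6 months, with 3 het mice, by its results. The labels hold 4 het mice, all used here, and give no age. The tissue was cortex and hippocampus combined, and Argonaute complexes were captured with a GW182 peptide before RNA was sized on a gel.

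A miRNA is cut from a hairpin precursor as a short duplex, and 1 strand is loaded into an Argonaute protein. Bases 2 to 7 of the loaded strand, the 6mer seed, pair with target mRNAs, so a read that starts at another base or carries another base in the seed addresses other targets. ADAR enzymes deaminate adenosine to inosine in double-stranded RNA, which is read as G in sequencing, and hairpins of the imprinted Dlk1-Dio3 region are textbook substrates in brain. For each 6mer seed the table gives a 6mer seed viability, the mean viability in percent of 3 murine cell lines transfected with that seed in a neutral backbone. A low value marks a toxic seed. It is a property of the seed and was not measured in these mice.

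The match of these reads to the mature miRNA was broken in nearly all that could be compared. All 20437 named reads that could be compared with a RefSeq mature sequence shared at least 18 bases in a row with it. Of 9704 reads without a name that could be compared, 9597 (98.9%) shared fewer than 18, and the median was 14. The rule by which names were given is not stated in the sources used here and was inferred from these runs. By it a base change in the middle of a read, a length of 15 to 17 nt or a shifted position leaves a read without a name, so these features are descriptions of the set, not findings about it. It does not cover the 107 reads that shared 18 bases or more, and 1825 reads could not be compared. RefSeq hairpin sequences of the build GRCm38.p6 were matched for 182 hairpins with 9708 reads, which held 87.6% of the CPM of the set (reads of a sequence scaled to a fixed total per library). Reads with 1 substitution, with or without a 3′ tail, made up 64.6% of the CPM (7295 reads). Exact stretches of the hairpin made up 17.7% (1086 reads), 12.4% (1821 reads) lay on hairpins with no sequence to compare, 2.99% differed only by a 3′ tail, and 0.449% had 1 base lost or added.

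The following sequences carry the main contents of the set. Reads are written with U for T, 5′ to 3′, and capitals mark bases 2 to 8, the extended seed. Each mature miRNA, from RefSeq (GRCm38.p6), stands above the most abundant reads without a name on the same arm. The pairs of mir-376b, mir-411 and mir-379 show a changed seed base, the pair of mir-341 a shifted start, and the let-7c-5p reads a shortened 3′ end and a changed base outside the seed.
miR-376b-3p: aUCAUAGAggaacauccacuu
miR-376b-3p read without a name: aUCAUGGAggaacauccacuu
miR-376b-5p: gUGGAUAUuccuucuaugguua
miR-376b-5p read without a name: gUGGAUGUuccuucuaugguu
miR-411-5p: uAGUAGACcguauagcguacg
miR-411-5p read without a name, starting 1 base upstream: aUAGUGGAccguauagcguacg
miR-411-5p read without a name, starting at base 1: uAGUGGACcguauagcguacg
miR-379-5p: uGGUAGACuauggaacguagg
miR-379-5p read without a name: uGGUGGACuauggaacguagg
miR-341-3p: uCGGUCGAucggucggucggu
miR-341-3p read without a name: uCGAUCGGucggucggucagu
let-7c-5p: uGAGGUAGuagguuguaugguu
let-7c-5p read without a name, 5′ piece: uGAGGUAGuagguugu
let-7c-5p read without a name, full length: uGAGGUAGuggguuguaugguu

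The 10 most abundant hairpins held 55.2% of the CPM of the set, 105 hairpins had a mean of at least 10 CPM and 46 had less than 1 CPM. The most abundant was mir-376b with 2524 CPM ± 551 (SD, n = 8) from 117 reads, followed by mir-341 with 1288 CPM ± 926. Then came mir-9-2 (1268 CPM ± 249), mir-128-1 (1247 CPM ± 262) and mir-124-2 (1150 CPM ± 250), precursors of miRNAs that are abundant in neurons. These last 4 hairpins did not differ beyond their spread. The others of the 10 were mir-26a-2 (921 CPM ± 178), let-7c-2 (914 CPM ± 104), let-7b (523 CPM ± 174), mir-411 (522 CPM ± 193) and mir-125b-2 (422 CPM ± 157). Families with several hairpin copies, such as let-7, miR-9 and miR-26a, share mature sequences, so the copy named is the one the authors' matching chose.

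Most hairpins held few reads without a name for each named read. 2 of the 105, mir-1937a and mir-712, had no named read, and over the other 103 the median was 1.59 reads without a name per 100 named reads, with quartiles at 1.26 and 2.19. Over 225 hairpins with named reads, the sums of both kinds were correlated across hairpins (Spearman's rho 0.873), which share libraries and depth and are not independent replicates. mir-9-2 had 1.70, mir-128-1 1.87, mir-124-2 2.18, mir-26a-2 1.42, let-7c-2 1.83, let-7b 1.45 and mir-125b-2 1.87 per 100, all inside the quartiles. A small number of hairpins lay far above them. mir-341 had 364 and mir-376b 152 reads without a name per 100 named reads, the only 2 of the 103 with more unnamed than named reads. mir-376c, a neighbour of mir-376b with no sequence shown here, had 90.8 per 100, mir-411 25.8 and mir-379 13.3.

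The most abundant read of the whole set was miR-376b-3p with a G at its sixth base, the change A6G, counted from base 1 at the 5′ end of the mature miRNA. The hairpin lies at chr12:109723458-109723539 on the plus strand, outside any other GENCODE gene, and the changed base at chr12:109723513. The 21-nt read stood at 1768, 2161, 1430 and 1191 CPM in het replicates 1 to 4 and at 2396, 2179, 1412 and 1356 CPM in ko replicates 1 to 4. The groups overlapped, and the log2 fold change of ko against het, on the log2(CPM + 1) scale, was 0.15 ± 0.30 (SE; adjusted p = 0.97, limma). All reads over this base together gave a share of G of 72.7%. The share was 70.8%, 74.4%, 65.4% and 69.6% in het and 74.5%, 75.6%, 75.8% and 75.2% in ko. The ko libraries lay above the het libraries, by as little as the step from 74.4% to 74.5%, and the latter value lay inside the 95% Wilson interval of het replicate 2 (73.2% to 75.5%). The mean difference was 5.26 percentage points, with an exact permutation p of 0.0286, the smallest that 4 against 4 allows, and an adjusted p of 1 over the 1696 base shares tested. Across those 1696 shares the groups did not overlap in 42, or 2.48%, of which 20 were higher in ko, and the share at this base does not stand apart from that background. Base 6 lies in the seed, which becomes UCAUGG with a viability of 44.2% in place of UCAUAG with 66.8%.

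The other arm of the same hairpin carried A7G in 9.86% of the reads over that base, between 8.43% and 11.8% in the 8 libraries, at chr12:109723477. It turned the seed UGGAUA, with a viability of 93.0%, into UGGAUG with 71.7%. Both arms of mir-376b were thus represented in the set, and 99.4% of its CPM without a name came from reads with 1 substitution.

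mir-411 lies at chr12:109710175-109710256 on the plus strand and carried A5G in 31.7% of the miR-411-5p reads over that base (chr12:109710194). The share was 29.8%, 35.5%, 29.0% and 27.3% in het and 32.7%, 34.4%, 29.1% and 31.8% in ko. The groups overlapped (exact permutation p = 0.486, adjusted p = 1). miR-411-5p was loaded from 2 start positions, and the change occurred in both. Among reads that started 1 base upstream of the RefSeq start, 33.8% carried it, and the seed went from UAGUAG (84.3%) to UAGUGG (47.3%). Among reads that started at the RefSeq start, 28.9% carried it, and the seed went from AGUAGA (87.2%) to AGUGGA (64.3%). The most abundant of these reads, the 22-nt form, had 245, 351, 234 and 112 CPM in het and 226, 340, 138 and 105 CPM in ko, with overlapping groups.

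mir-379, at chr12:109709060-109709125 on the plus strand, carried A5G in 15.9% of the miR-379-5p reads over that base (chr12:109709069). The share was 15.9%, 15.8%, 16.9% and 16.4% in het and 14.4%, 16.98%, 13.2% and 18.1% in ko (exact permutation p = 0.657, adjusted p = 1). The change gave the seed GGUGGA, with a viability of 15.7%, from GGUAGA with 34.4%. At their RefSeq starts, the changed seeds of miR-376b-3p, miR-376b-5p, miR-411-5p and miR-379-5p each had a lower viability than the seed they replaced. The reverse held for A4G of miR-376a-5p, whose seed went from GUAGAU with 38.8% to GUGGAU with 50.2%.

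Outside the seed, miR-337-3p carried A10G in 7.71% of its reads over that base (5.37% to 10.5% in the libraries) and miR-377-3p carried A10G in 5.39% (2.60% to 7.78%). With miR-376a-5p (A4G in 37.6%, of which only 17.3% lay on reads without a name) and miR-540-5p (A3G in 6.49%, all on named reads), 8 A-to-G changes reached at least 5% among the 204 mature miRNAs with a RefSeq sequence and enough coverage, all on chromosome 12 between mir-337 at 109585789 and mir-377 at 109740577, the region named Dlk1-Dio3. The only other change among these 204 that reached 5% was C9U of miR-344-3p, on named reads of a hairpin of chromosome 7. Arms without a RefSeq sequence, miR-376c-3p among them, were not scanned. These sites were chosen for their size after their values were seen and are given as a description. The values nearest below 5% were A2G of miR-497a-5p (4.12%) and A10U of miR-193b-3p (4.02%). Over 986 A-to-G changes at bases covered by at least 100 CPM the median share was 0.0373%, and 21 were above 1%.

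132 reads on these sites held 3188 CPM, or 16.3% of the CPM of the set. A-to-G made up 46.7% of the CPM of all reads with 1 substitution and U-to-C 20.9%. Without the reads on these sites, A-to-G (28.7%) and U-to-C (27.9%) were nearly equal, C-to-U gave 12.6% and G-to-A 11.1%, and each of the other 8 changes gave at most 4.24%. The set had 96.5% of the CPM with 1 substitution at bases 5 to 18 of the mature miRNA, where a change breaks a run of 18 bases. At the remaining sites the changes were spread over these bases, with 460 to 860 CPM at each of them. The reads of mir-128-1, mir-26a-2 and let-7b were mostly of this kind. The most abundant was miR-128-3p with A10G at 71.0 CPM, 47.7 to 102 CPM in het and 58.0 to 88.9 CPM in ko. mir-26a-2 was led by miR-26a-5p with A16G at 39.2 CPM and mir-9-2 by miR-9-5p with U17C at 29.1 CPM. Among these hairpins no single read held more than 5.7% of the hairpin's CPM without a name, against 68.8% for mir-376b and 81.6% for mir-341.

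mir-341 was the second hairpin of the set, and only 1.57% of its CPM without a name came from reads with 1 substitution. It lies at chr12:109611500-109611595 on the plus strand, in an intron of the noncoding gene Rian, and its main read was an exact stretch of the hairpin that started 4 bases downstream of the RefSeq start of miR-341-3p and overlapped it by 17 bases. This 21-nt read had 1734, 662, 643 and 1110 CPM in het and 722, 480, 447 and 2609 CPM in ko. Ko replicate 4 was the highest of all, het replicate 1 came next, and the groups overlapped (log2 fold change −0.25 ± 0.50, adjusted p = 0.97, limma). The 2 highest values were in the 2 libraries of lowest depth, and the part of depth in them was not tested. Reads that started at base 5 of the RefSeq mature miRNA summed to 1259 CPM, while named reads that started at base 1 summed to 253 CPM. Reads without a name made up 73.2% to 83.7% of the mir-341 reads in het replicates 1, 2 and 4, 70.4% in het replicate 3, and 68.7% to 84.7% in ko. The seed of the main read, CGAUCG, had a viability of 71.1%.

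Exact reads that lay wholly inside a mature arm were 15 to 17 nt long. Those that ended at the 3′ end of the arm (237 reads) summed to 843 CPM and those that began at its 5′ end (120 reads) to 434 CPM, and 359 reads with 465 CPM reached neither end. The 5′ pieces keep the seed of the miRNA, while 3′ pieces begin with another. The 5′ pieces summed to 958, 402, 384 and 479 CPM in het and 177, 188, 328 and 551 CPM in ko. The 2 lowest sums were in the 2 deepest libraries and the 2 highest in the 2 shallowest, and the part of depth was not tested. The 3′ pieces were between 655 and 918 CPM in het and between 761 and 1010 CPM in ko.

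The most abundant 5′ piece was the first 16 bases of let-7c-5p, which let-7a-5p and let-7b-5p share, with the seed GAGGUA and a viability of 50.3%. It had 253, 92.2, 47.8 and 106 CPM in het and 16.03, 16.3, 40.4 and 120 CPM in ko. Its log2 fold change was −1.60 ± 0.61 (adjusted p = 0.776, limma), 1 of the 3 smallest p-values among reads that were lower in ko. It was −0.58 without the 2 libraries over 5000000 reads and −2.19 without ko replicate 4. The other 2 were miR-369-3p with U13C (23.2, 18.6, 27.6 and 13.1 CPM in het, 4.96, 7.48, 9.88 and 6.86 CPM in ko, log2 fold change −1.37 ± 0.45, adjusted p = 0.603, limma) and a 24-nt miR-153-3p with U18C (−1.90 ± 0.65, adjusted p = 0.649, limma). The groups did not overlap for these 2 reads, which were picked by p, and the share of all reads without overlap was not counted. Among reads that were higher in ko, the smallest p belonged to a 3′ piece of let-7a-5p, bases 6 to 22, with 7.72, 4.81, 9.71 and 8.26 CPM in het and 25.4, 16.5, 14.6 and 15.7 CPM in ko (log2 fold change 1.15 ± 0.45, adjusted p = 0.776, limma). It was followed by miR-9-5p with C12U (1.61 ± 0.67) and let-7a-5p with U6C (0.73 ± 0.38), whose seed GAGGCA has a viability of 7.5%. Of these 3 higher reads, the groups overlapped only for let-7a-5p with U6C.

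No read without a name passed the test between genotypes. limma fitted on log2(CPM + 1) called 16 of the 3299 reads with a mean of at least 10 CPM at an adjusted p under 0.05 (0.485%), and 0 of the 233 without a name among them. At an unadjusted p under 0.05 it listed 8 of the 233, 2 higher and 6 lower in ko, against 5.3% of all 3299 reads. edgeR and DESeq2 on the recovered read counts also called 0 of the 233, beside 14 (0.424%) and 27 (0.818%) of all 3299 reads. Only 233 of the 11529 reads, with 43.0% of the CPM of the set, reached this level, and with a filter of 1 CPM 0 of 3189 passed, beside 35 of all 16442 reads (0.213%). With no filter 0 of the 11529 passed, beside 45 of all 47204 reads (0.0953%). In the shallowest library 26.0% of the reads of the set were seen at all, and in the deepest 96.7%.

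Summed by hairpin, 0 of the 105 hairpins with at least 10 CPM passed, while 5 of all 568 sums in the fit, named miRNAs included, did (0.88%). At an unadjusted p under 0.05, 4 of the 105 hairpins were listed, all lower in ko, against 7.57% of all 568. edgeR and DESeq2 called 0 of the 105, beside 4 (0.704%) and 9 (1.58%) of all 568. The median log2 fold change was −0.06 over the 105 and −0.08 over all 568. Centring each library on its median moved all sums by 0.26, and the median of the 105 was then 0.20, with 4 hairpins listed as higher and 0 as lower, so the direction of this split rests on the scaling. The moves by edgeR and DESeq2 normalization were 0.13 and 0.14.

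The hairpin with the smallest p was mir-153, the precursor of a miRNA of neurons, which lies in an intron of Ptprn2 at chr12:117250817-117250885. Its reads without a name summed to 212, 183, 224 and 138 CPM in het and 65.8, 136, 69.6 and 136 CPM in ko, a log2 fold change of −0.95 ± 0.32 (adjusted p = 0.424, limma). The lowest het library lay just above the highest ko library. mir-369 (chr12:109743418-109743496) had 195, 151, 191 and 93.5 CPM in het and 84.4, 97.2, 99.7 and 64.7 CPM in ko (−0.82 ± 0.31). mir-29b-2 followed with −0.71 ± 0.28, mir-138-1 with −0.61 ± 0.28 and mir-99a with −0.92 ± 0.46, all with overlapping groups. The value of mir-99a moved to −0.35 without the 2 libraries over 5000000 reads and to −1.32 without ko replicate 4. In the other direction, the 5 smallest p-values belonged to mir-1937a (1.02 ± 0.59), mir-151 (0.54 ± 0.35), mir-1983 (0.83 ± 0.59), mir-9-2 (0.34 ± 0.25) and mir-433 (0.58 ± 0.43), and their groups overlapped too. Adjusted p-values of these 10 hairpins were between 0.424 and 0.92 (limma). None of the 10 most abundant hairpins passed. mir-376b had a log2 fold change of 0.12 ± 0.27, mir-341 −0.32 ± 0.51, mir-128-1 0.25 ± 0.26 and mir-411 −0.14 ± 0.34, and the signs of mir-341 and mir-411 turned with edgeR and DESeq2 scaling.

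mir-200a, the precursor of an epithelial miRNA, was below 10 CPM and entered only with a lower filter. Its reads without a name stood at 13.5, 12.4, 10.5 and 23.7 CPM in het and at 2.16, 0.70, 1.29 and 0 CPM in ko. With a filter of 1 CPM its log2 fold change was −3.03 ± 0.56 (adjusted p = 0.0111, limma), and it was the 1 of 188 hairpins of the set that passed there, beside 7 of all 886 sums (0.79%). With no filter it was the 1 of 234 that passed, beside 6 of all 1129 sums (0.531%). The summed level of 6 epithelial miRNAs (miR-200a-3p, miR-200b-3p, miR-429-3p, miR-141-3p, miR-200c-3p and miR-205-5p), all detected in every library, ranged from 2184 to 8442 CPM in het and from 166 to 1727 CPM in ko. The list holds miR-200a-3p, a product of mir-200a itself, so it is not independent of this hairpin. Its part in the mir-200a reads was not tested. In bulk tissue fewer cells of a type and less RNA per cell cannot be told apart. 3 neuronal miRNAs (miR-124-3p, miR-9-5p, miR-128-3p) summed to 145125 to 247446 CPM over the 8 libraries. The other lists overlapped between groups. The 2 oligodendrocyte miRNAs summed to 4002 to 9574 CPM, 4 miRNAs of blood and microglia to 973 to 2691 CPM, miR-126a-3p of endothelium to 2391 to 8499 CPM, and the 2 choroid plexus miRNAs to 2117 to 4665 CPM, 1 of which was not detected in every library.

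As a whole, the set took 1.97% ± 0.117 (SD, n = 4) of the CPM in het and 1.97% ± 0.126 in ko, a difference of 0.00563 percentage points (exact permutation p = 0.943). The 6mer seeds of the set had a mean viability of 55.3% ± 0.858 for het mice and 54.9% ± 1.75 for ko mice (exact permutation p = 0.657). Without ko replicate 4, which stood at 57.5%, ko minus het was −1.31 percentage points (exact permutation p = 0.0571). The share of the CPM of the set with a seed viability under 40% was 13.1% ± 0.958 against 12.6% ± 2.0. The share longer than 23 nt was 1.70% ± 0.177 against 1.65% ± 0.139. Over these measures and the mean length of 20.7 nt in both genotypes, adjusted p-values from exact permutation were between 0.821 and 0.943. Reads of 21 nt held 36.2% and reads of 22 nt 27.5% of the CPM of the set, and reads of 15 to 17 nt, a length at which no read was named, 12.7%.

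The mean seed viability of the set was below that of the named reads of the same library in 8 of 8 libraries. The difference was −1.31 percentage points ± 0.626 (SD, n = 8; exact sign-flip p = 0.00781, the smallest that 8 libraries allow). The inferred naming rule itself gathers reads with changed bases or shifted starts, which can change the seed. The same sequences recur across libraries, so these sign-flip p-values describe a stable composition and are no independent test of these reads. The difference depended on which hairpins were kept. Without mir-376b it was 0.0893 (exact sign-flip p = 0.648), and without mir-341 it was −2.33 (exact sign-flip p = 0.00781). Without the 5 hairpins whose A-to-G reads all lacked a name (mir-376b, mir-411, mir-379, mir-337 and mir-377, with mir-376a kept) it was 0.532, in the opposite direction (exact sign-flip p = 0.0312). The reads on the A-to-G sites had a mean viability of 45.2% ± 0.537 (SD, n = 8) and the other reads of the set 57.0% ± 1.26, beside 56.4% ± 0.786 for the named reads.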

How the data were processed

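Titles of the samples gave genotype and replicate number. The members and lists were chosen with earlier results of these data known. The authors trimmed the reads (Trim Galore per the labels, version not given in the sources used here) and ran their SPOROS pipeline, and the deposited values are CPM per distinct sequence. All values were whole reads within 0.0006 CPM, which gave depths of 509839 to 19878054 reads, and every sequence had at least 8 reads in all. The deposited seed viability is a percent taken by the authors from a screen and used as a score.

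Reads were placed on RefSeq hairpins allowing 1 substitution, 1 lost or added base or a tail of up to 3 bases, and GENCODE M21 gave host genes. Base shares were taken at bases covered by at least 100 CPM. Measures per library were compared by two-sided exact permutation of genotype labels over 70 assignments or by sign flips over 256. Features whose mean reached 10 CPM were fitted with limma 3.58.1 (trended and robust) on log2(CPM + 1) with Benjamini-Hochberg adjustment, and edgeR 4.0.16 and DESeq2 1.42.0 on recovered read counts were alternatives. Named were the 10 hairpins with the highest mean, the 5 hairpins and 3 reads with the smallest p in each direction, and the most abundant read of hairpins where the text turns on it. Intervals cover counting error only, and the study's methods name no molecular identifiers. That each library is 1 mouse follows from the labels.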

Additional observations from a re-analysis of the deposited data

Results flagged for a closer look

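In 70 groups of 4 libraries, 4 had a library that stood far from the other 3, against 3.5 that chance would give (about 1 in 20). Ko replicate 4 had a mean seed viability of 57.5% for the reads without a name, with the next ko library at 54.1%. The same library held 3189 CPM of mir-341 reads, with the next ko library at 809 CPM. It held 28.4 CPM of mir-1983 reads, with the next ko library at 12.5 CPM. Het replicate 1, the shallowest library, had 11.7% of the CPM of the set at a seed viability under 40%, with the next het library at 13.6%.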

How the results depend on the processing

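Differences are ko minus het. None of the shares and means of the set passed the test between genotypes under any alternative. Without the 2 libraries over 5000000 reads, and with a replicate block, too few assignments remained for an exact p under 0.05. The signs of the shares and means turned as follows. Without the 2 libraries over 5000000 reads the share of CPM differed by −0.0058 percentage points, the mean viability by 0.457, the mean length by −0.0167 nt and the share over 23 nt by 0.00415. The share of CPM differed by −0.0155 without mir-376b and by −0.00688 without the 5 hairpins of the A-to-G sites, an alternative added after seeing the data, as was leaving out mir-341. A threshold of 20 or 60 for viability gave 0.173 and 0.0951, and counting each distinct read once gave a mean viability difference of 0.14. Against named reads, the viability difference was 0.0893 without mir-376b, −2.33 without mir-341 and 0.532 without the 5 hairpins. With 1 library left out, the share of CPM ranged from −0.0407 to 0.0596 and the share under 40% viability from −1.35 to 0.25. The share over 23 nt ranged from −0.118 to 0.0327. Mean viability kept its sign, from −1.31 without ko replicate 4 to −0.0548 without het replicate 1.

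In the fit of sums, 1 member hairpin (mir-200a) passed with a filter of 1 CPM (beside 7 of all 886 sums). It also passed with no filter (beside 6 of all 1129), and its adjusted p was 0.0111 and 0.0182 (limma). All other alternatives kept the filter of 10 CPM, which left mir-200a out, and 0 member hairpins passed. In the fit of reads 0 members passed under every alternative. Log2 fold changes that turned were those of mir-376b (−0.20), mir-341 (0.16), mir-124-2 (0.0149) and mir-26a-2 (−0.13) without the 2 deep libraries, mir-341 (0.18 and 0.18), mir-124-2 (0.0215 and 0.0223) and mir-411 (0.0046 and 0.0056) with edgeR and DESeq2, and mir-124-2 (0.13) and mir-411 (0.12) with centring. With 1 library left out they ranged from −0.0281 to 0.22 for mir-376b, −0.10 to 0.21 for mir-26a-2, −0.11 to 0.0637 for let-7c-2, −0.0426 to 0.39 for let-7b and −0.40 to 0.0622 for mir-411. There mir-341 kept its sign, from −0.90 without ko replicate 4 to −0.0509 without het replicate 1. The causes were not tested.

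Replicate numbers occur in both genotypes but the mice differ. Same-numbered libraries correlated at −0.00554, 0.132, −0.127 and 0.149, so they were not treated as pairs. With a replicate block, the share of CPM differed by 0.00563 (exact sign-flip p = 1, the smallest possible being 0.125), mean viability by −0.438, the share under 40% by −0.52, the mean length by 0.0332 nt and the share over 23 nt by −0.0527. With the replicate block 0 member hairpins and 0 member reads passed, while 10 of all 568 sums and 26 of all 3299 reads did, against 5 and 16 without it.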

Other observations

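9 hairpins had reads without a name and no named read, led by mir-1937a with 13.7 CPM, mir-712 with 10.6 CPM and mir-197 with 8.56 CPM. Other hairpins with at least 10 CPM and over 10 reads without a name per 100 named reads were mir-467d (33.9), mir-421 (15.6), mir-370 (11.8) and mir-378 (10.5). The main mir-376c read without a name had 152 CPM and the seed ACAUGG with a viability of 46.4%, and it stood at 124, 133, 183 and 119 CPM in het and at 187, 216, 116 and 136 CPM in ko. A10U of miR-193b-3p was uneven between libraries, with 13.8% in ko replicate 3, 6.25% in het replicate 1 and at most 1.12% in the other 6 libraries.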
